A study of Mus musculus with 6 samples.

Results

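The proteasome genes of the spleen were taken from the deposited counts as the protein-coding genes whose symbol begins with Psma, Psmb, Psmc or Psmd and a number. The rule found 40 of the 31771 gene identifiers. Of these, 39 encode proteasome subunits or their dedicated chaperones, and 1, Psmc3ip, encodes a meiotic recombination protein that shares only the prefix and was left out of the counts of proteasome genes. The 3 immune catalytic subunits Psmb8, Psmb9 and Psmb10 were set apart from the other 36, which include Psma8, a form known from testis, and Psmb11, a form known from thymus. The remaining 34 are called standard here. RNA came from pieces of spleen of 3 mutant and 3 wild-type mice, all labelled C57BL/6. The mutants carried 3 alleles, VEC-Cre, the transposase of Sleeping Beauty (SB) and onc2, its transposon, and the controls were labelled WT. VEC-Cre is Cre recombinase driven by the VE-cadherin promoter of endothelium, which is also active in the embryonic endothelium that gives rise to blood stem cells, so transposition need not have been limited to vessels. The series text gives cellular composition as the question of the comparison. Age and sex are not stated in the labels, although the mutants' titles begin with F or M.

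The proteasome is the protease that degrades ubiquitin-tagged proteins in every cell. Its core particle (20S) is a barrel of alpha rings, which gate the entrance, and beta rings, which hold the cutting sites. Its regulatory particle (19S) binds the ubiquitin chain, removes it and unfolds the substrate with a ring of ATPases. In immune cells and under interferon, Psmb8, Psmb9 and Psmb10 are built into new barrels in place of Psmb5, Psmb6 and Psmb7, which changes the peptides that are cut and passed to MHC class I. Lymphocytes and dendritic cells of the spleen are known for a high content of this immunoproteasome.

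Libraries held 72902118 to 79258116 counts, and each level below is in CPM, that is, counts per library total after scaling every total to the same size. Over all 19573 tested genes, 995 were higher in the mutants (5.08%) and 1351 were lower (6.9%) by edgeR's quasi-likelihood test with Benjamini-Hochberg adjustment at 0.05, and the median log2 fold change was 0.10. The mutants varied more among themselves than the controls: the estimated coefficient of variation between animals was 73.2% for mutants and 17.07% for controls. Xist stood at 1513 and 580 CPM in mutants 1 and 2 and at no more than 0.663 CPM in mutant 3 and the controls. The Y-linked Ddx3y stood at no more than 0.0412 CPM in mutants 1 and 2, at 60.4 CPM in mutant 3 and at 55.0 to 62.7 CPM in the controls. Both genes set mutants 1 and 2 apart from mutant 3 and all controls. The titles of mutants 1 and 2 begin with F and that of mutant 3 with M, letters the labels do not explain. Sex is thus partly confounded with genotype, and in mutants 1 and 2 sex and genotype cannot be told apart. The only X-linked member was Psmd10. All 10 B-cell markers were lower in the mutants, their summed level being 6195 to 6990 CPM in the controls and 45.8 to 102 CPM in the mutants. Of 10 T-cell markers 5 were lower, of 8 dendritic-cell markers 2, and of 7 markers of splenic stroma 5. Of 10 neutrophil and granulocyte precursor markers 4 were higher, as were 2 of 10 erythroid markers. The median log2 fold change of the erythroid list was 1.69, although its summed level was 3866 to 48324 CPM in the mutants against 52515 to 82361 CPM in the controls. The haemoglobin genes Hbb-bs and Hba-a1, with control means of 53144 and 16377 CPM, made up most of the control sum. None of these markers was at 0 in any library.

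All 34 standard proteasome genes had a higher fitted level in the mutant spleens, by a median log2 fold change of 0.66, and the 3 immune catalytic subunits had a lower one. Of the 38 proteasome genes tested, 12 rose (31.6%, against 5.08% of all genes) and 0 fell, all 12 being standard genes. At an unadjusted p under 0.05 the counts were 30 higher and 1 lower, the lower one being Psmb9. The 34 standard genes lay between 0.33 and 1.01 on the log2 scale with an SD of 0.18 across genes, and a further 14 of them had an adjusted p between 0.05 and 0.10. In 32 of the 34, all 3 mutants stood above all 3 controls, which was so for 18.0% of all genes, and the exceptions were Psmb1 and Psmb5. A log2 fold change above 0 was found for 54.8% of all genes. Every standard gene stood at 27.2 CPM or more in each control, so none entered the test through the mutants alone.

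The summed level of the 34 standard genes was 3024, 3118 and 3093 CPM in the controls and 5118, 4179 and 4927 CPM in the mutants. The groups did not overlap, and the controls lay closer together than the mutants. The means were 3079 ± 49.0 CPM (SD, n = 3) in the controls and 4741 ± 496 CPM (SD, n = 3) in the mutants. Each mutant alone had all 34 standard genes above the control mean, with a median log2 difference of 0.69 in mutant 1, 0.52 in mutant 2 and 0.63 in mutant 3, the mutant that matched the controls in Xist and Ddx3y. The counts are shares of each library's RNA, so more cells rich in proteasome transcripts and more transcript per cell cannot be told apart in these bulk samples, nor can fewer cells of a type and less RNA per cell. Summed cell-cycle transcripts moved in the same direction, from 973 to 1499 CPM in the controls to 3159 to 5296 CPM in the mutants, and their part in the result was not tested.

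All 12 calls were lost when any 1 of the controls was left out, with 17 to 20 members then higher at an unadjusted p. Calls over all genes also fell then, to 0.0195% to 0.0392% higher. Without mutant 1, 2 and 3, 22, 27 and 10 members were called, against 8.73%, 13.6% and 4.28% of all genes. With DESeq2 14.5% of all genes were called higher. DESeq2 called 29 members higher, 28 standard genes and Psma8, and all 34 standard genes kept a log2 fold change above 0 in each of the 14 alternatives run.

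**Figure D1:**
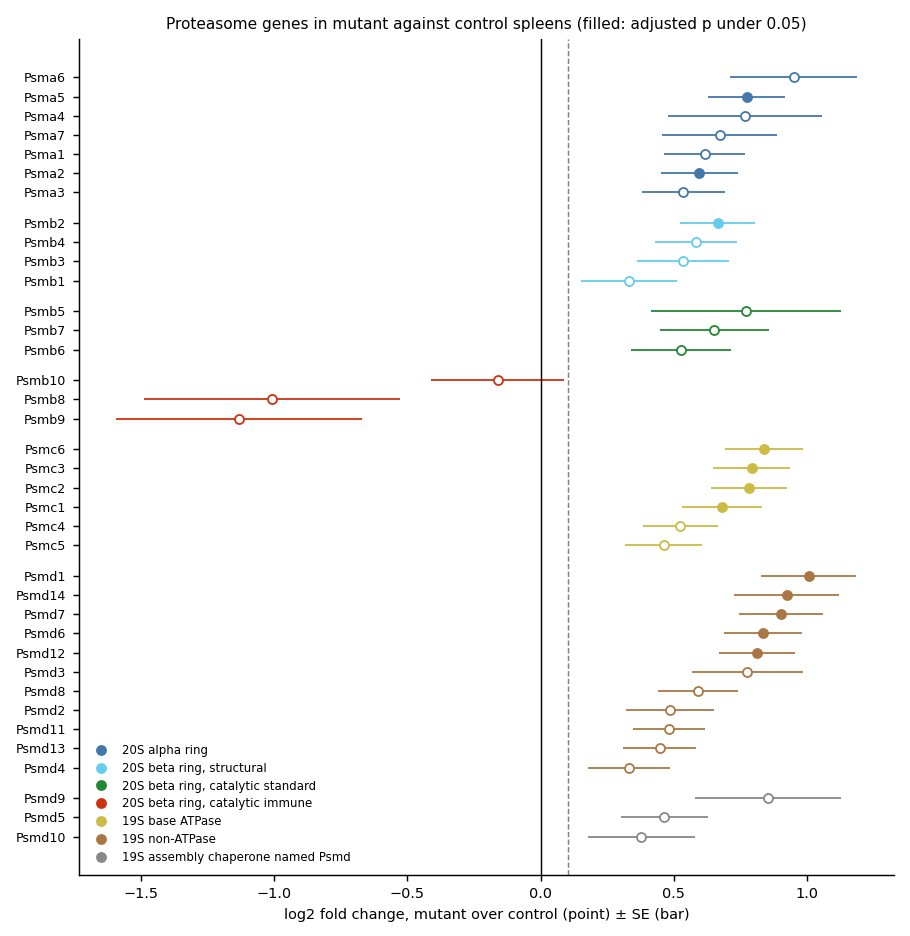
Fitted log2 fold change of each proteasome gene, mutant over control (x axis), with its SE as a bar, for 37 tested genes grouped and coloured by role (Psma8 is not drawn). Filled points passed an adjusted p of 0.05, and the dashed line is the median of all tested genes, 0.10. All 34 standard genes lie to the right of 0, between 0.33 and 1.01, and the 3 immune subunits to the left, between -1.13 and -0.16.

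In the alpha ring 2 of 7 genes rose, Psma2 and Psma5, with a median log2 fold change of 0.67 over the ring. Psma5 stood at 64.8, 68.8 and 73.3 CPM in the controls and 130.2, 105 and 116 CPM in the mutants, a log2 fold change of 0.77 ± 0.15 (SE) with an adjusted p of 0.0262. Psma2 stood at 105, 112 and 115 CPM in the controls and 175, 145 and 179.8 CPM in the mutants, a change of 0.60 ± 0.15 with an adjusted p of 0.0491. In both genes every mutant was above every control, and mutant 2 was the lowest of the mutants. Psma6 had the largest fitted change of the ring and Psma3 the smallest, and neither passed the test. Psma6 was at 81.9, 88.6 and 81.8 CPM in the controls and 219.6, 118 and 149 CPM in the mutants (0.95 ± 0.24, adjusted p = 0.0540), with mutant 1 far above the others. Psma3 was at 111, 114 and 108 CPM against 183, 143 and 155 CPM (0.54 ± 0.16, adjusted p = 0.0760), with no overlap between the groups.

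Of the 4 beta subunits that have no active site, 1 rose. That subunit, Psmb2, stood at 70.2, 79.0 and 77.4 CPM in the controls and 122, 113 and 121 CPM in the mutants, a log2 fold change of 0.66 ± 0.14 with an adjusted p of 0.0334. The mutants lay close together here and well above the controls. Psmb1 had the smallest change of the 4, from 178, 190.1 and 182 CPM to 263, 179.7 and 249 CPM (0.33 ± 0.18, adjusted p = 0.259). Mutant 2 fell within the controls' range for this gene, and mutants 1 and 3 stood above it.

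The ATPases form the ring that pulls the substrate open, and 4 of the 6 rose: Psmc1, Psmc2, Psmc3 and Psmc6. Psmc6 changed most, from 50.7, 51.0 and 49.3 CPM in the controls to 85.2, 90.4 and 92.7 CPM in the mutants (0.84 ± 0.15, adjusted p = 0.0219). Psmc3 went from 130.2, 135 and 129.5 CPM to 231, 214 and 235 CPM (0.79 ± 0.15, adjusted p = 0.0244). Both showed narrow groups that lay far apart. Psmc2 was at 74.2, 81.3 and 80.2 CPM in the controls and 129, 126 and 148 CPM in the mutants (0.78 ± 0.14, adjusted p = 0.0244). Psmc1 was at 92.9, 89.8 and 82.7 CPM in the controls and 139.7, 142 and 142 CPM in the mutants (0.68 ± 0.15, adjusted p = 0.0384), the mutants being nearly equal. Psmc5 had the smallest change of the ring, 101, 106 and 109.9 CPM against 157, 136 and 140.3 CPM (0.46 ± 0.14, adjusted p = 0.0867), again without overlap.

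Among the 11 other subunits of the regulatory particle 5 rose: Psmd1, Psmd6, Psmd7, Psmd12 and Psmd14. Psmd1, a large scaffold subunit that anchors the ubiquitin receptor Adrm1, had the highest fitted change of the 34 standard genes. It stood at 47.8, 54.1 and 55.5 CPM in the controls and 87.8, 109 and 116 CPM in the mutants, a log2 fold change of 1.01 ± 0.18 with an adjusted p of 0.0225. Psmd14, the deubiquitinase that cuts the ubiquitin chain off the substrate, was at 61.0, 56.8 and 62.4 CPM against 144, 89.7 and 107 CPM (0.92 ± 0.20, adjusted p = 0.0346). Its inactive partner Psmd7 was at 69.5, 70.3 and 76.5 CPM against 134, 112 and 157 CPM (0.90 ± 0.16, adjusted p = 0.0219). Mutant 1 was highest for Psmd14 and mutant 3 for Psmd7 and Psmd1, and no mutant reached down to a control in any of the 3 genes. Psmd6 and Psmd12 are lid subunits of the scaffold around Psmd14. Psmd6 was at 53.0, 47.1 and 48.5 CPM in the controls and 92.3, 80.5 and 91.3 CPM in the mutants (0.84 ± 0.15, adjusted p = 0.0219). Psmd12 was at 54.1, 54.0 and 51.2 CPM in the controls and 92.6, 86.6 and 99.4 CPM in the mutants (0.81 ± 0.14, adjusted p = 0.0219). Both had mutants that lay close to each other and clear of the controls. Psmd4, a ubiquitin receptor of the particle, had the smallest change of the 11, from 163, 164 and 154 CPM to 214, 175 and 214 CPM (0.33 ± 0.15, adjusted p = 0.199).

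Psmd5, Psmd9 and Psmd10 carry subunit names but are chaperones that help assemble the ATPase ring and then leave it, and none of the 3 passed the test (2 did at an unadjusted p under 0.05). Psmd9 had the largest change, from 36.2, 35.2 and 30.1 CPM to 40.9, 70.7 and 70.2 CPM (0.85 ± 0.27, adjusted p = 0.0936). Mutant 1 stood near the controls and the other mutants far above them. The X-linked Psmd10 had the smallest, from 28.1, 27.5 and 30.9 CPM to 31.1, 34.1 and 46.9 CPM (0.38 ± 0.20, adjusted p = 0.253), and its highest level was in mutant 3, where Xist was at 0.586 CPM.

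The core and regulatory particles both had their lowest mutant sum in mutant 2, and they differed in which mutant was highest. The 14 standard core genes summed to 2470, 1733 and 2070 CPM in mutants 1, 2 and 3, with a control mean of 1372 ± 36.5 CPM (SD, n = 3). Mutant 1 was the highest of the mutants for 11 of these 14 genes and mutant 2 the lowest for 11 of 14. The 17 regulatory subunits summed to 2512, 2276 and 2683 CPM in the mutants and to 1598 ± 15.1 CPM (SD, n = 3) in the controls. Here mutant 1 was highest for 7 genes, mutant 2 for 4 and mutant 3 for 6, and they were lowest for 5, 8 and 4. Of the core genes 3 of 14 rose and of the regulatory subunits 9 of 17, and the difference between these counts was not tested. The SD over the mutants was 369 CPM for the core sum and 204 CPM for the regulatory sum.

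**Figure D2:**
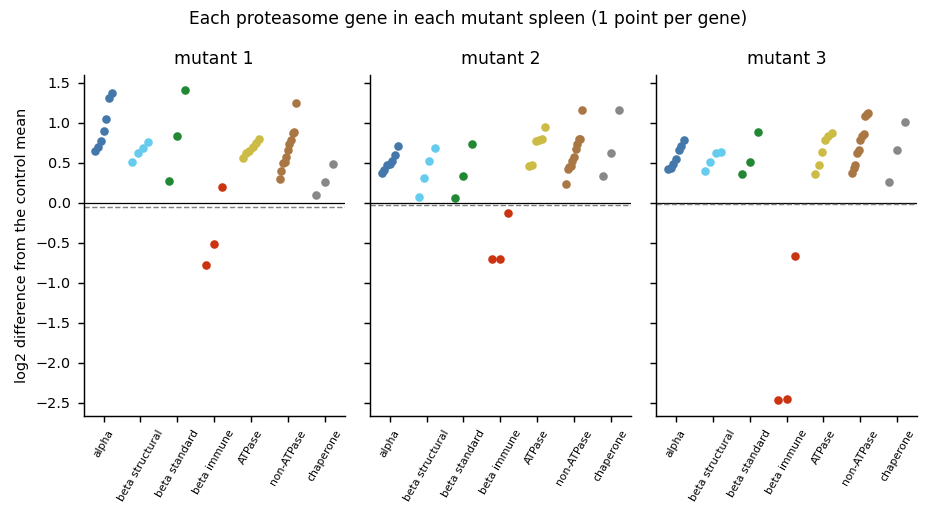
Log2 difference of each proteasome gene from the mean of the controls (y axis), in 1 panel per mutant, with 1 point per gene and genes grouped by role; the dashed line is the median of all tested genes in that mutant. All 34 standard genes stand above 0 in each panel. In mutant 3 the immune subunits Psmb8 and Psmb9 stand apart at the bottom, at -2.46 and -2.47, with Psmb10 at -0.66.

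Levels were also divided by the length in kilobases of the annotated principal transcript, the longest one where more than 1 held that rank. Whether it was the transcript expressed was not checked, so different genes compare only roughly. The lengths taken for Psma2 and Psma3 were 2911 and 2846 bases, against 914 for Psma7. On this measure the standard genes ran from 10.3 CPM per kilobase (Psmd5) to 145 (Psma7) in the controls, with a median of 54.5. In the mutants they ran from 14 to 230.2, between the same genes, with a median of 86.8. The standard core transcripts spanned 29.0 (Psmb7) to 145 (Psma7) CPM per kilobase in the controls. Psmb5, Psmb6 and Psmb7 share their places in the barrel with Psmb8, Psmb9 and Psmb10. These immune subunits stood at 105, 139 and 111 CPM per kilobase in the controls.

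The immune catalytic subunits did not rise with the rest, and 0 of the 3 passed the test in either direction. Psmb8 (ENSMUSG00000024338, chr17:34197721-34201454, GRCm38) replaces Psmb5 at the site that cuts after hydrophobic residues. It stood at 157, 163 and 190.3 CPM in the controls and 119.6, 97.5 and 31.9 CPM in the mutants, or 170.2 ± 17.6 against 83.0 ± 45.6 CPM (SD, n = 3). Every mutant was below every control, as were 22.6% of all genes, and mutant 3 was far lower than mutants 1 and 2. The log2 fold change was -1.01 ± 0.48 with an adjusted p of 0.211. Psmb9 (ENSMUSG00000096727, chr17:34181987-34187764), which replaces Psmb6, lies beside it in the MHC region. It stood at 164, 176 and 225 CPM in the controls and 110.1, 107 and 34.8 CPM in the mutants, again with no overlap and with mutant 3 lowest (-1.13 ± 0.46, adjusted p = 0.159). Psmb10 (ENSMUSG00000031897, chr8:105935735-105938444), which replaces Psmb7, stood at 127, 143 and 166 CPM in the controls and 167, 124 and 94.6 CPM in the mutants (-0.16 ± 0.25, adjusted p = 0.695). Mutant 1 was above all controls for Psmb10, and mutants 2 and 3 were below all of them. In mutant 3 the median log2 difference of the 3 genes from the control mean was -2.46, against -0.52 in mutant 1 and -0.70 in mutant 2. Psmb8 and Psmb9 were at -2.46 and -2.47 in mutant 3, and Psmb10 was at -0.66.

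Their standard partners had higher fitted levels than in the controls, and 0 of the 3 passed the test (2 did at an unadjusted p under 0.05). Psmb5 (ENSMUSG00000022193, chr14:54614119-54618022) stood at 27.2, 28 and 28.3 CPM in the controls and 74.9, 27.2 and 41.1 CPM in the mutants (0.77 ± 0.36, adjusted p = 0.199). Mutant 2 was level with the controls and mutant 1 far above them. Psmb6 (ENSMUSG00000018286, chr11:70525367-70527858), which cuts after acidic residues, was at 90.7, 92.4 and 95.4 CPM against 167, 109 and 123 CPM (0.53 ± 0.19, adjusted p = 0.118). Psmb7 (ENSMUSG00000026750, chr2:38588036-38644087), which cuts after basic residues, was at 33.8, 32.3 and 34.7 CPM against 41.1, 52.1 and 64.3 CPM (0.65 ± 0.21, adjusted p = 0.0898). For Psmb6 and Psmb7 the groups did not overlap, with mutant 1 the highest for Psmb6 and the lowest for Psmb7.

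**Figure D3:**
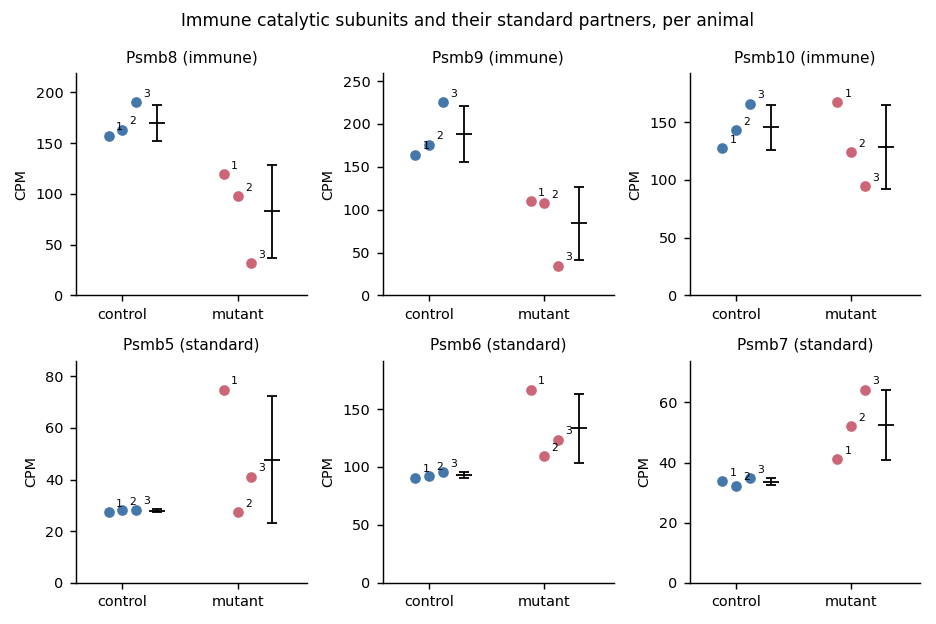
CPM (y axis, from 0) of each immune catalytic subunit (top row) and of the standard subunit it replaces (bottom row) in the 3 control and 3 mutant animals, numbered by replicate, with the mean and SD as a bar. Psmb8 and Psmb9 are lower in every mutant than in every control, whereas Psmb10 is at 167 CPM in mutant 1, above the highest control at 166 CPM.

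Within a library the ratio of an immune subunit to its partner does not depend on the library total. Psmb8 counts were 5.77, 5.82 and 6.72 times those of Psmb5 in the controls, and 1.6, 3.58 and 0.776 times in the mutants. Every mutant was below every control, and in mutant 3 the standard subunit was the more abundant by counts. Per kilobase of transcript the Psmb8/Psmb5 ratios were 3.19, 3.21 and 3.71 in the controls. In mutants 1, 2 and 3 they were 0.882, 1.98 and 0.429, so mutant 1 was below 1 as well. The mean ratio of counts on the log2 scale was 2.61 ± 0.12 (SD, n = 3) in the controls and 0.72 ± 1.10 (SD, n = 3) in the mutants, a 3.70-fold lower ratio. Psmb9 counts were 1.81, 1.90 and 2.36 times those of Psmb6 in the controls and 0.660, 0.981 and 0.282 times in the mutants, 3.54-fold lower. All controls lay above a ratio of 1 and all mutants below it. Psmb10 counts were 3.76, 4.44 and 4.78 times those of Psmb7 in the controls and 4.07, 2.38 and 1.47 times in the mutants, 1.77-fold lower, and mutant 1 fell within the controls' range. The exact 2-sided permutation test gave p = 0.1 for Psmb8/Psmb5 and for Psmb9/Psmb6 (0.15 adjusted over the 3 pairs) and p = 0.2 for Psmb10/Psmb7. With 3 animals against 3 the smallest p this test can give is 0.1, so none could pass 0.05. The immune subunits made up 74.7, 75.9 and 78.6% of the counts of these 6 transcripts in the controls and 58.4, 63.5 and 41.4% in the mutants.

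**Figure D4:**
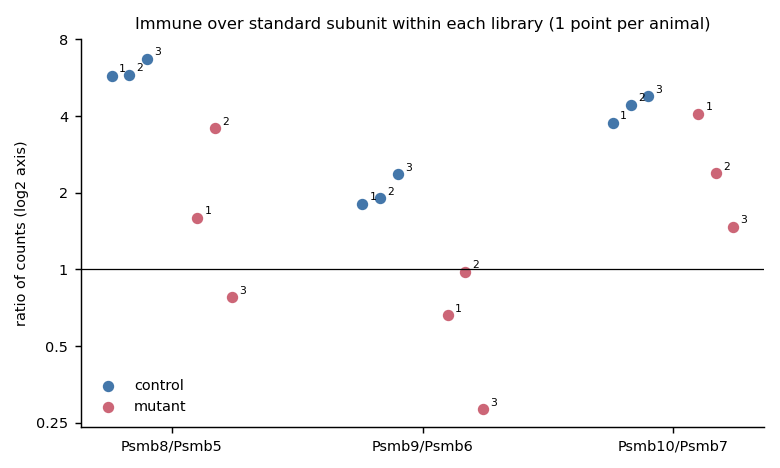
Ratio of the counts of each immune subunit to those of its standard partner (y axis, log2 scale) in each control and mutant animal, numbered by replicate. For Psmb8/Psmb5 and Psmb9/Psmb6 the mutants lie below all controls, and for Psmb10/Psmb7 mutant 1 at 4.07 lies among the controls at 3.76 to 4.78.

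B-cell markers were low in all 3 mutants, with sums of 102, 69.3 and 45.8 CPM in mutants 1, 2 and 3. Cd79b alone gave 58.2, 29.3 and 9.78 CPM of these sums. Summed NK-cell markers were 45.0, 72.0 and 51.1 CPM in mutants 1, 2 and 3, against 124 to 144 CPM in the controls. Nkg7 alone gave 34.7 CPM of the sum in mutant 1. Prf1 gave 31.4 CPM of the sum in mutant 3, above its controls at 12.6 to 15.8 CPM. The median log2 difference of the NK-cell list was -3.91, -0.76 and -3.74 in mutants 1, 2 and 3. Summed T-cell markers were 38.2, 299 and 32.7 CPM in mutants 1, 2 and 3, against 893 to 1085 CPM in the controls. Of the 299 CPM, Cd4 alone gave 197 CPM, above its level of 85.0 to 107 CPM in the controls. The median T-cell marker lay below the control mean in mutant 2, at a log2 difference of -2.62. Summed dendritic-cell markers were 42.0, 121 and 34.2 CPM in mutants 1, 2 and 3, against 227 to 260 CPM in the controls. Summed monocyte and macrophage markers were 382, 4814 and 646 CPM in mutants 1, 2 and 3, against 759 to 1018 CPM in the controls, mutant 2 standing apart. Summed neutrophil and granulocyte precursor markers were 620, 1890 and 1197 CPM against 175 to 293 CPM. Of the 620 CPM, Prtn3 alone gave 416 CPM. The median marker of this list lay below the control mean for mutant 1, at a log2 difference of -0.78. For mutants 2 and 3 the median differences were 3.30 and 2.86. The 4 markers that passed the test, Mpo, Prtn3, Ctsg and Ms4a3, stood above all controls in every mutant. The part of these cell types in the levels of the immune subunits was not tested. In the annotation 12 of the 40 genes found by the rule, Psmc3ip included, share exonic bases with another gene, and 6 share at least 10% of their exonic length: Psmb5, Psmb7, Psmb8, Psmd9, Psmd13 and Psmc3ip. Psmb9 and Tap1 overlap on opposite strands over 212 bases, and without a stated strand setting the reads of such pairs cannot be told apart.

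Outside mutant 1 both tissue-restricted forms were at no more than 2.12 CPM. Psmb11, the form of thymic cortical epithelium, was at no more than 0.208 CPM in any library and did not pass the filter on low counts. Psma8 stood at 1.03, 1.05 and 0.833 CPM in the controls and 19, 2.12 and 0.430 CPM in the mutants (2.87 ± 1.29, adjusted p = 0.190). Mutant 1 was far above all other libraries, and mutant 3 was below the controls. Psma8 is a close copy of Psma7, and reads shared between them could have been split by the authors' counting. Psmc3ip, the gene taken by its prefix alone, was at 4.63, 5.06 and 4.39 CPM in the controls and 19.4, 14.1 and 14.3 CPM in the mutants (1.77 ± 0.27, adjusted p = 0.0160).

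Promoter sequences of the members were read from RefSeq windows on GRCm38.p6, from 250 bases before to 50 bases after the start site, of which 32 members had at least 1. Among the standard genes 28 had a window. The core of the antioxidant response element, bound by the Nfe2l factors that are known to drive standard proteasome genes, was searched as TGACNNNGC on both strands and occurred in 5 of the 28, namely Psmb5, Psmb6, Psmc6, Psmd9 and Psmd12. It occurred in 12.4% of all 32851 windows and in 0 of the 3 immune windows. A core of the interferon regulatory factor element, GAAA, any 2 bases and GAAA on both strands, occurred in 3 of 28 standard windows, 0 of 3 immune windows and 3.44% of all. The CCAAT box, searched as CCAAT on both strands, occurred in 11 of 28, in 1 of 3 (Psmb9) and in 37.4% of all. A match describes these letters in this window only. The windows of Psmb8 (chr17:34197945-34198244) and Psmb9 (chr17:34187281-34187580) lie inside the annotated genes. So do those of Psmd5, Psmd9, Psmd13 and Psmb11, and a further window of Psma6 and of Psmc2. The sequence upstream of Psmb8, Psmb9, Psmd5, Psmd9, Psmd13 and Psmb11 was therefore not searched, and the absence of a match does not speak for it.

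The stretches outside annotated exons are shown for 4 standard genes that hold the antioxidant response element core and for Psmb10, the immune gene whose window reaches beyond its exons, so that the positions can be compared. Each runs from 5′ to 3′ on the gene's own strand, with the matches in capitals. They lie at chr14:54618023-54618245 (minus strand) for Psmb5, chr11:70525107-70525356 (plus) for Psmb6, chr14:45329574-45329787 (plus) for Psmc6, chr11:107479278-107479483 (plus) for Psmd12 and chr8:105938445-105938642 (minus) for Psmb10.
Psmb5: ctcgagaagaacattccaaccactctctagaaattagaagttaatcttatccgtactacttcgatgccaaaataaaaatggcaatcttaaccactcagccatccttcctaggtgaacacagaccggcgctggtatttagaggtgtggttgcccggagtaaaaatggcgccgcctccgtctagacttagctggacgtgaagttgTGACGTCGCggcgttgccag
Psmb6: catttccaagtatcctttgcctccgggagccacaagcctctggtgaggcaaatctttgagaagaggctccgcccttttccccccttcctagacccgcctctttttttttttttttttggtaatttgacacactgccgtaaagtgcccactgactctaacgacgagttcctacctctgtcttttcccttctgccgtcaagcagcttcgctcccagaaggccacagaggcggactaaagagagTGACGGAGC
Psmc6: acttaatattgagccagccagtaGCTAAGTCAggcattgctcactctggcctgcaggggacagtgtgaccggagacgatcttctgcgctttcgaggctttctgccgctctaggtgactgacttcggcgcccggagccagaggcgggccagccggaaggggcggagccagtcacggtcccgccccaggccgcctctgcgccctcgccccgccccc
Psmd12: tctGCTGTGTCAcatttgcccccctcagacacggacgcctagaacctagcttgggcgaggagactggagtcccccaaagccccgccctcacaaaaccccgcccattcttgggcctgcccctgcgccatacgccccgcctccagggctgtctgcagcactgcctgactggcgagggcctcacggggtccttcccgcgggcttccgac
Psmb10: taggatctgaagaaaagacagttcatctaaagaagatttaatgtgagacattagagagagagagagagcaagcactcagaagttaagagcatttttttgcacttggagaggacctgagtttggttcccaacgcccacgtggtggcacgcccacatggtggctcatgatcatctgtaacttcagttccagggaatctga
In Psmb5, Psmb6 and Psmd9 (not printed) the match lies on the gene's strand within the last 50 bases before the start site. In Psmc6 and Psmd12 it lies on the other strand near the far end of the window, so the capitals there read as the reverse complement. The Psmb10 stretch holds none of the 3 motifs.

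Outside the complex, genes that work with the proteasome were taken from lists chosen by function. Of all tested genes 5.08% were higher and 6.9% lower, the shares beside which the counts in these lists stand. No list was tested as a set. Of 7 other regulatory-particle subunits and bound proteins that were tested 3 rose and 0 fell. Usp14, a deubiquitinase that trims chains on the regulatory particle, was at 39.0, 38.9 and 36.1 CPM in the controls and 94.9, 90.6 and 86.6 CPM in the mutants (1.26 ± 0.15, adjusted p = 0.00949). Uchl5, the other deubiquitinase that docks there, was at 28.7, 28.2 and 26.7 CPM against 100.02, 46.8 and 62.1 CPM (1.32 ± 0.29, adjusted p = 0.0366). Both had fitted changes above that of any of the 34 standard genes, and their groups did not overlap. Txnl1, a thioredoxin-like protein bound to the regulatory particle, was at 64.8, 61.3 and 57.9 CPM against 122, 114 and 124 CPM (0.98 ± 0.14, adjusted p = 0.0152). Of 8 genes of the shuttles and the segregase that deliver ubiquitin-tagged proteins 1 rose, Rad23b, from 85.5, 87.0 and 91.0 CPM to 151, 119.8 and 130.4 CPM (0.61 ± 0.15, adjusted p = 0.0479).

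None of the 5 activators and inhibitors of the core passed edgeR's test, and none did before adjustment or with DESeq2 or limma-voom. The nuclear activator Psme3, the highest of them in CPM averaged over all 6 libraries, stood at 308, 295 and 249 CPM in the controls and 261, 432 and 257 CPM in the mutants (0.18 ± 0.30, adjusted p = 0.714). Psme1 and Psme2, which form the interferon-induced activator, had log2 fold changes of -0.19 ± 0.26 and -0.42 ± 0.27 with adjusted p of 0.655 and 0.340. None of the 5 chaperones that assemble the core passed the test either. Pomp, the highest in CPM averaged over all 6 libraries, stood at 105, 106 and 112 CPM in the controls and 169.6, 112 and 129 CPM in the mutants (0.35 ± 0.18, adjusted p = 0.239). Psmg1 was higher at an unadjusted p under 0.05 and was called by DESeq2, with 17.8, 19.1 and 16.3 CPM against 48.6, 19.2 and 37.0 CPM. As for Psmb5, mutant 2 was level with the controls.

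Among 5 regulators of the standard genes 1 rose and 0 fell, against 5.08% and 6.9% of all genes. Nfe2l2, the factor of the antioxidant response, stood at 64.3, 67.7 and 73.5 CPM in the controls and 102, 114 and 146 CPM in the mutants (0.83 ± 0.18, adjusted p = 0.0356). Nfe2l1, the related factor that raises proteasome genes when proteasome activity is short, stood at 116, 119.7 and 131 CPM in the controls and 66.2, 107 and 88.8 CPM in the mutants (-0.47 ± 0.23, adjusted p = 0.223). The groups did not overlap for either gene, and they lay in opposite directions.

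Of 11 regulators of the immune genes, which carry the interferon signal, 0 passed edgeR's test, while 2 were lower before adjustment (p under 0.05) and 2 with DESeq2. The median log2 fold change of the list was -0.70, against 0.10 for all genes. The 2 genes at an unadjusted p were Irf2, a transcription factor (-0.83 on the log2 scale, adjusted p = 0.0856), and Jak1, a kinase of interferon receptors. Jak1 had the highest CPM of the list averaged over all 6 libraries, although Irf8 was higher in each control. Jak1 stood at 372, 373 and 399 CPM in the controls and 224, 219 and 328 CPM in the mutants (-0.57 ± 0.20, adjusted p = 0.119), without overlap. Irf1, an activator of Psmb9 and Tap1, was at 159, 166 and 238 CPM in the controls and 47.7, 147 and 27.3 CPM in the mutants (-1.28 ± 0.65, adjusted p = 0.236). Irf8, a factor of B cells, dendritic cells and monocytes, was at 406, 419 and 439 CPM against 17, 217 and 52.4 CPM (-2.07 ± 0.90, adjusted p = 0.178). For both factors mutant 2 was the highest of the mutants and all mutants were below all controls.

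Of 9 genes that load peptides onto MHC class I 2 rose and 0 fell, against 5.08% and 6.9% of all genes. Those were the endoplasmic reticulum chaperones Pdia3 and Canx, which also fold other glycoproteins. Pdia3 was at 294, 295 and 316 CPM in the controls and 479, 499 and 627 CPM in the mutants (0.83 ± 0.18, adjusted p = 0.0359). Canx was at 249, 238 and 252 CPM against 364, 417 and 569 CPM (0.88 ± 0.21, adjusted p = 0.0487). The peptide transporter genes had values on the other side. Tap1 was at 336, 366 and 459.8 CPM against 339.9, 280.3 and 140.4 CPM (-0.59 ± 0.36, adjusted p = 0.316), lowest in mutant 3 as were its neighbours Psmb8 and Psmb9. Tap2 was at 139, 148 and 160.3 CPM against 187, 71.2 and 65.5 CPM (-0.46 ± 0.42, adjusted p = 0.496), with mutant 1 above the controls.

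**Figure D5:**
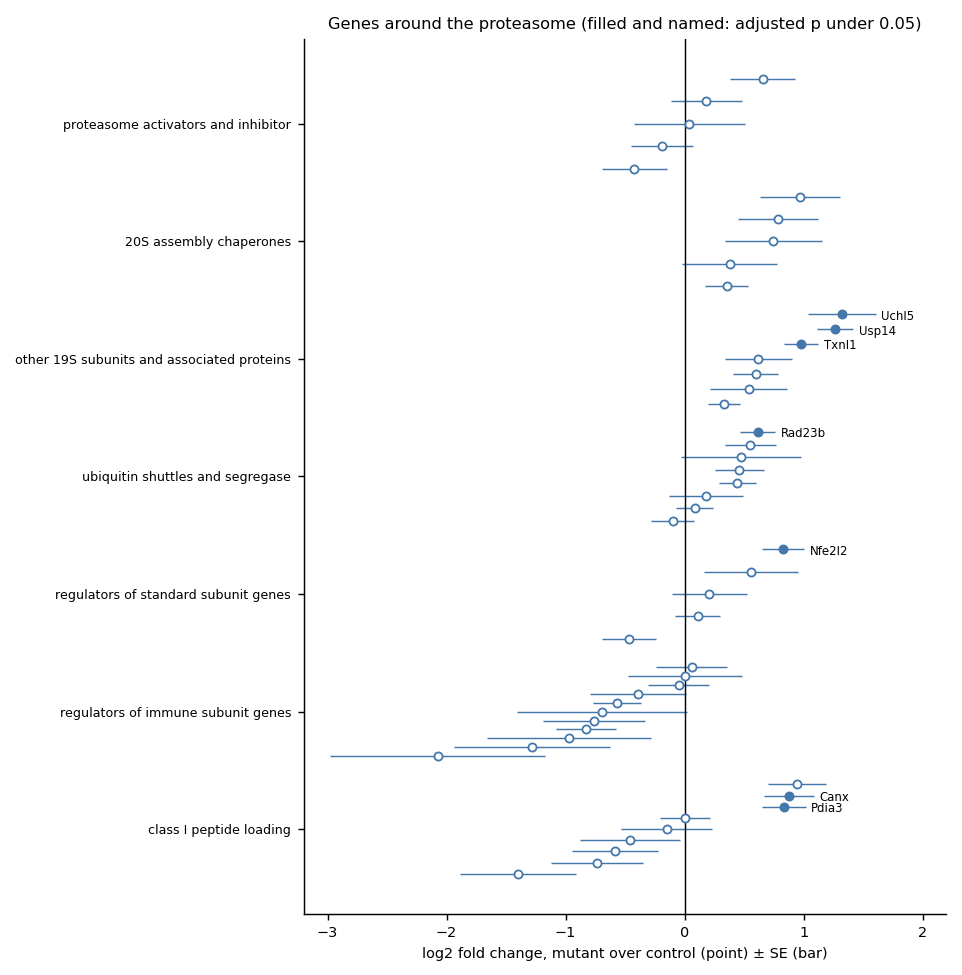
Fitted log2 fold change, mutant over control (x axis), with its SE as a bar, for the genes of 7 lists around the proteasome, 1 row per gene within its list. Filled and named points passed an adjusted p of 0.05: Uchl5, Usp14, Txnl1, Rad23b, Nfe2l2, Canx and Pdia3, all to the right of 0.

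Cell-cycle genes, listed for the share of dividing cells, had the largest median change of the lists outside the marker lists. Of the 14, 11 rose and 0 fell, against 5.08% and 6.9% of all genes, and the median change on the log2 scale was 1.71. The smallest adjusted p were those of the replication helicase subunits Mcm6 (1.77 ± 0.21, adjusted p = 0.00909), Mcm7 (1.48 ± 0.20, adjusted p = 0.0118) and Mcm5 (1.46 ± 0.19, adjusted p = 0.0119) and of the thymidylate synthase gene Tyms (2.21 ± 0.26, adjusted p = 0.00944). Their levels were highest in different mutants. The summed list was 3159, 5296 and 3955 CPM in mutants 1, 2 and 3, of which Mki67 alone gave 559, 1768 and 1027 CPM. Mcm6 was at 395, 300 and 327 CPM, so the order of the mutants differed between genes of the list. Of the 18 genes called in all lists outside the complex, 0 were called without control 1 or control 2, and 1, Tyms, without control 3. Only 0.0195% to 0.0392% of all genes were called higher in these fits.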

How the data were processed

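Stranded libraries of poly-A RNA were prepared from 50 ng per sample, per the labels' protocols. The authors deposited whole-number counts per Ensembl gene without normalization. Per the submitters' processing notes, STAR 2.5.3a, limma, mm10 and GRCm38 were used, in roles not named there. Annotation release and strand setting: not given in the sources used here. Symbols matched 31669 of 31771 identifiers, with coordinates from GENCODE M21 on GRCm38, and 0 columns lacked a sample.

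The members and gene lists were chosen with earlier results of these data known. edgeR 4.0.16 in R 4.3.3 was fitted to all genes with TMM factors, its expression filter by group, robust quasi-likelihood and no covariate, and was tested on simulated data. The SE is the log2 fold change over the root of the F statistic. CPM used library totals without TMM factors. Replicates are animals numbered in accession order, which pairs none of them. Values were given for the immune subunits, their partners, every member past the threshold and the extremes of each role, and in other lists for up to 4 genes past the threshold or, with none, the most abundant gene. Psmc3ip, Psme1, Psme2, Psmg1, Nfe2l1, Irf1, Irf2, Irf8, Tap1, Tap2, Xist, Ddx3y and Psma8's and Psmb11's levels were named after their values were seen. Ratios used counts. Alternatives were other scalings and filters, DESeq2 1.42.0, limma-voom (limma 3.58.1) with common or group variances, haemoglobin and immunoglobulin genes left out, and each library left out in turn. Libraries held 72902118 to 79258116 counts, so low counts limit only Psmb11 and, outside mutant 1, Psma8.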

Additional observations from a re-analysis of the deposited data

How the results depend on the processing

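The 34 standard genes had a log2 fold change above 0 in all 14 alternatives, and 0 members were called lower in any of them. The 12 members called higher became 29 with DESeq2 and 0 to 27 with 1 library left out. They were 8 with upper-quartile scaling, which moved the median of all genes from 0.10 to 0.0028 on the log2 scale, and 8 with limma-voom at 1 variance per group. Over all genes, 995 higher became 2841 with DESeq2 and 4 to 2794 with 1 library left out, and 1351 lower became 2809 with DESeq2, 786 with limma-voom and group variances, and 119 to 3137 with 1 library left out. Of the listed genes outside the complex, 18 higher became 10 with limma-voom and group variances and 0 to 23 with 1 library left out, and 0 lower became 3 with DESeq2 (2 regulators of the immune genes and 1 class I loading gene), 1 with limma-voom and group variances, and 0 to 8 with 1 library left out. The cause of these shifts was not tested. The adjusted p ranged from 0.0741 to 0.422 for Psmb8 and from 0.0669 to 0.377 for Psmb9. With 1 library left out, Psmb10 lay between -0.36 and 0.038 (positive without mutant 3) and Psme3 between -0.17 (without mutant 2) and 0.34. The 3 subunit ratios were lower in the mutants in every alternative run for them. Depth limits only Psmb11, at no more than 0.208 CPM, and, outside mutant 1, Psma8. No paired analysis was possible because the replicate numbers follow accession order and pair no animals.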
